A study of Drosophila melanogaster with 3 samples.

Results

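The genes described here are 10 core members of the *Drosophila* Hippo pathway (*ft*, *ds*, *ex*, *Mer*, *hpo*, *sav*, *wts*, *mats*, *yki* and *sd*), out of 13945 protein-coding genes on the main chromosome arms of the dm6 assembly. They were taken by name from the annotation. They were chosen with earlier results of these data known, so the shares of all genes set beside them are a description. The data are chromatin immunoprecipitation followed by sequencing (ChIP-seq) with an antibody against GFP, in whole *Drosophila melanogaster* prepupae of a strain that carries an insertion at CG6163 and makes a CG6163-eGFP fusion protein. The prepupa is the stage between the crawling larva and the pupa, and the labels give its age as an unknown stage and its sex as not collected. All 3 libraries are biological replicates of this single group, so there is no second condition, and each value mixes the chromatin of every tissue of the animal. Fewer cells with a bound site and less binding per cell cannot be told apart in such a mixture.

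The Hippo pathway limits organ growth. The atypical cadherins Ft and Ds at the cell surface, and the FERM-domain proteins Ex and Mer beneath it, act on a kinase cascade in which Hpo with its adaptor Sav activates Wts with its cofactor Mats. Wts phosphorylates the co-activator Yki and so keeps it out of the nucleus, while unphosphorylated Yki pairs with the DNA-binding protein Sd to switch on growth genes. In the imaginal discs, the larval tissues that form adult structures, this pathway sets final organ size.

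The measurements are positions of peaks, each with a summit and a signal, which is the authors' value for that peak. The scale of the signal is not stated, so it is used only to place a peak within its own list. The main list, named conservative by the authors, holds 10894 peaks kept by the authors' limit on the irreproducible discovery rate (IDR), a measure that is low when the rank of a peak repeats from set to set. The thresholded lists of single libraries hold 7449, 7920 and 5844 peaks for replicates 1, 2 and 3, and their unfiltered ranked lists hold 70608, 74274 and 85335. A promoter summit is a conservative summit within 500 bp of an annotated transcript start, and a gene body summit lies between the first and last base of the gene. A gene is called bound here when it has a promoter summit. A conservative peak counts as found in a library when it shares at least 1 bp with a thresholded peak of that library.

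CG6163-eGFP peaks lay at the promoters of 8 of the 10 Hippo pathway genes, which were *yki*, *hpo*, *mats*, *ft*, *ds*, *ex*, *sd* and *Mer*. The share among all protein-coding genes was 24.2%. The promoters of *wts*, the kinase that phosphorylates Yki, and *sav*, the adaptor of Hpo, held no summit. Gene bodies of 8 members held a summit, against 18.7% of all genes, and here *yki* and *sav* were those without. A summit in the body or within 10 kb of it was present for all 10 members, a setting that 72.2% of all genes also met.

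Fewer members kept their peaks when every library had to show them. The promoter peak was found in all 3 libraries at *yki*, *mats*, *ft*, *ex*, *sd* and *Mer*, 6 of 10 members against 12.1% of all genes. A gene body peak was found in all 3 libraries in 7 of 10 members, against 10.4% of all genes, with *hpo* the member whose body peak was not. Without regard to the libraries, *ft*, *ex* and *sd* had 2 promoter summits each, and 5.15% of all genes had 2 or more. The weaker summit of each pair had a signal of 86.6 at *ft*, 7.66 at *ex* and 93.6 at *sd*. At *ft* it was found in replicates 1 and 2, and at *sd* in replicate 2 alone. At *ex* it touches the library peaks of its strong neighbour. The 2 summits of *sd* lie at different starts of the gene. Taken from each library's own thresholded list, promoter summits were present at 6, 7 and 6 members in replicates 1, 2 and 3 (6.33 ± 0.577, SD, n = 3) and at 18.9%, 19.7% and 17.3% of all genes. *mats*, *ft*, *ex*, *sd* and *Mer* were on all 3 of these promoter lists, *yki* was on those of replicates 1 and 2, *ds* on that of replicate 2 and *hpo* on that of replicate 3.

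**Figure D1:**
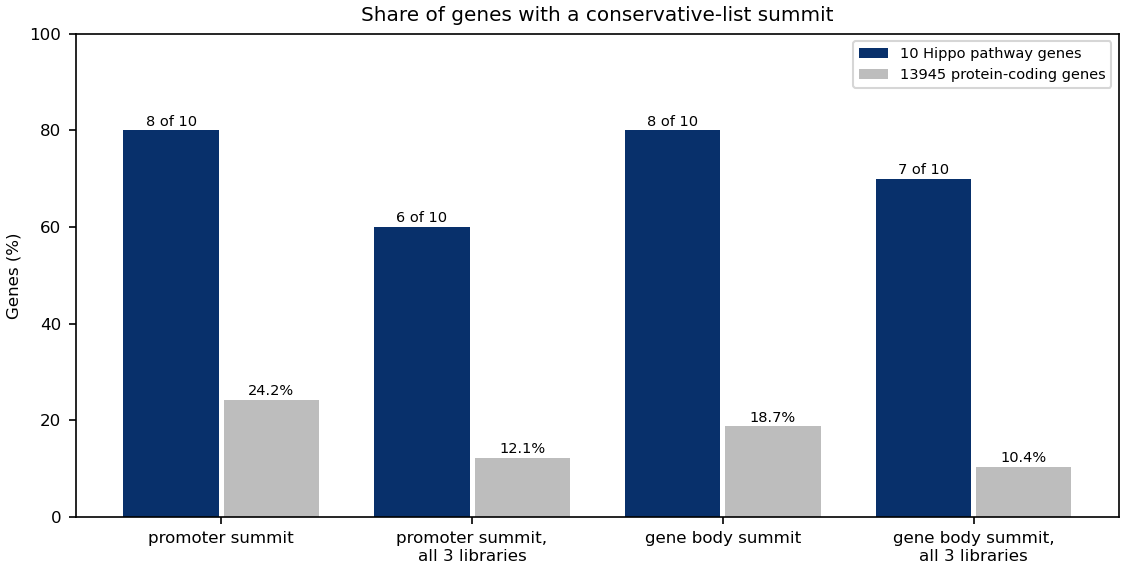
Share of genes (%) with a conservative-list summit at the promoter or in the gene body, for 10 Hippo pathway genes (dark bars, with counts) and all 13945 protein-coding genes (grey bars). The members' bars stand at 8, 6, 8 and 7 of 10 genes, beside 24.2%, 12.1%, 18.7% and 10.4% of all genes, and no test was made of the difference.

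Longer genes were bound more often, and 5 of the 10 members are 17.0 kb or longer while the other 5 are 3.8 kb or shorter. The median length over all protein-coding genes was 2.17 kb. Among genes under 5 kb, 17.8% had a promoter summit and 7.95% a body summit, and of the 5 members of this size (*yki*, *hpo*, *sav*, *mats*, *Mer*) 4 and 3 did. Among genes of 5 to 20 kb the shares were 40.6% and 43.3%, and of *wts* and *ex* 1 had a promoter summit and both had body summits. Among genes of 20 kb or longer the shares were 50.3% and 69.5%, and *ft*, *ds* and *sd* all had both kinds of summit. Shares of genes with a summit found in all 3 libraries were not split by length. Length was not the basis of any test, and its part in the members' count was not tested.

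**Figure D2:**
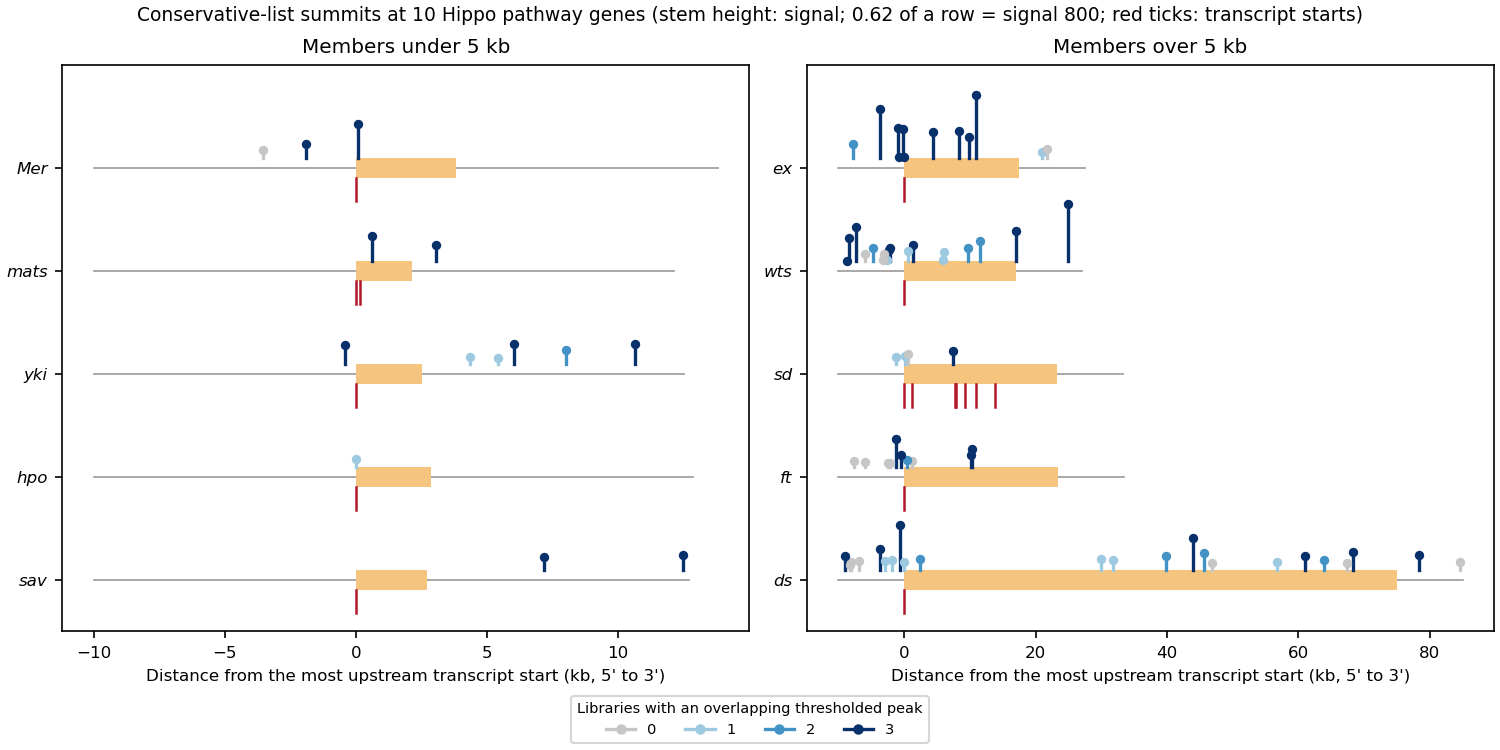
Conservative-list summits from 10 kb before to 10 kb after each Hippo pathway gene, by distance in kb from the most upstream transcript start; orange bars are gene bodies, red ticks transcript starts, stem height the signal and colour the number of libraries with an overlapping thresholded peak. *Mer*, *mats* and *hpo* have a single body summit, *sav* has none nearer than 7.18 kb to its start, and the summits of *ex* found in all 3 libraries stand on either side of its start and across its body.

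*ft* encodes the giant cadherin that acts as the receptor for Ds, and its promoter carried a pair of modest peaks. The gene lies on the minus strand at chr2L:4198404-4221796. The summit 427 bp upstream of its start had a signal of 142, close to the median of 140 over the conservative list, and its library peaks had signals of 40.1, 45.7 and 59.1 in replicates 1, 2 and 3. Another summit 398 bp inside the gene, in the 5′ UTR, had a signal of 86.6 and was found in replicates 1 and 2 but not in replicate 3. Its library peaks had signals of 53.6 and 47.7 in replicates 1 and 2, above those of the upstream peak there. The strongest peak near *ft* lay outside the promoter window, in intergenic sequence 1316 bp upstream, with a signal of 351 and library values of 105, 143 and 107. It stood within the first 25.7%, 16.9% and 23.2% of the lists of replicates 1, 2 and 3, while the peak at 427 bp stood at 88.9%, 83.4% and 55.9%. Inside the gene, 10175 and 10376 bp downstream of the start, neighbouring intronic summits had signals of 150 and 217 and shared the same library peaks.

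*ds* encodes the cadherin ligand of Ft, and its strongest peak missed the promoter window by a short distance. The gene spans 75.0 kb on the minus strand at chr2L:640013-714983. The summit inside the window, 22 bp downstream of the start in the 5′ UTR, had a signal of 97.0 and was found in replicate 2 alone (51.7, rank 5840 of 7920). The ranked lists of replicates 1 and 3 placed their peaks there at 9981 of 70608 and 19590 of 85335. In contrast, the intergenic summit 608 bp upstream had a signal of 557, rank 660 in the conservative list, and library values of 182, 184 and 173. It stood within the first 10.3%, 10.9% and 9.6% of the libraries' lists. The call at the *ds* promoter thus rests on the weaker of these peaks. That weaker summit has the *ds* start as its nearest but also lies inside lncRNA:CR44988, a noncoding RNA gene. So does the *ds* body summit 2478 bp downstream of the start, which lies 1937 bp from the start of lncRNA:CR44988. Within the body, 13 summits had signals from 83.6 to 399, and 3 of them were found in all 3 libraries. The strongest, in an intron 44.0 kb downstream of the start, had library values of 158, 149 and 86.8.

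Sequence is shown for the strongest upstream sites of the cadherin genes, 101 bases centred on the summit. It is the plus strand of dm6, as given by RefSeq, in lower case, 5′ to 3′. Capitals mark letters that match TATAAA on either strand, and the other motifs searched, which are given further on, had no match in these windows. The *ft* window 427 bp upstream is chr2L:4222173-4222273, the *ft* window 1316 bp upstream is chr2L:4223062-4223162, and the *ds* window 608 bp upstream is chr2L:715541-715641.
ft, 427 bp upstream: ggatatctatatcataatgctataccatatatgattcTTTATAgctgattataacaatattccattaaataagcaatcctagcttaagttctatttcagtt
ft, 1316 bp upstream: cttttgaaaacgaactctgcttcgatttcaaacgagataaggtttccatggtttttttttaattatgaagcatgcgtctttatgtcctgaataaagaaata
ds, 608 bp upstream: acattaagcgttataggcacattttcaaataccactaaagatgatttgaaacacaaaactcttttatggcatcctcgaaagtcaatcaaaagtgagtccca

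*ex*, which encodes a FERM-domain protein at the apical membrane that activates the kinase cascade, held strong peaks upstream of its start and across its body. It lies on the plus strand at chr2L:431227-448701. All 5 of its gene body summits overlapped a thresholded peak in all 3 libraries, as did both promoter summits. The strongest, in an intron 10893 bp downstream of the start, had a signal of 785 and rank 346 in the conservative list. In the libraries this peak had signals of 290, 319 and 200, at ranks 319, 313 and 413, which is within the first 4.28%, 3.95% and 7.07% of their lists. No other summit within 10 kb of the 10 genes had a higher signal.

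The remaining peaks of *ex* ranged from very strong to near the bottom of the list. Upstream, the summit at 3687 bp had a signal of 614 and library values of 193, 243 and 169. At 936 bp the signal was 372 (123, 146 and 91.6). The promoter summit 181 bp upstream had a signal of 368, with library values of 142, 161 and 70.1, and it stood at 15.4%, 13.4% and 43.9% of the lists, so that replicate 3 placed it lower than the other libraries did. Inside the gene, intronic summits at 4392, 8311 and 9928 bp had signals of 320, 342 and 260. The one at 8311 bp lay 1 bp from the start of lncRNA:CR43717, a noncoding RNA gene within *ex*, so that its peak cannot be given to one of these genes by position. Weak summits at 720 bp upstream (10.5) and 21 bp downstream (7.66) had q-values of 0.886 and 0.892 and lay beside strong peaks. They count as found in 3 libraries only because their intervals touch the same library peaks as those neighbours.

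Each library repeated this layout. Of the 12 conservative summits from 10 kb before to 10 kb after *ex*, counterparts numbered 8, 9 and 7 in the thresholded lists of replicates 1, 2 and 3. The peak at 10893 bp was the strongest of the region in each list, followed by the peak at 3687 bp upstream. Replicate 3 lacked the thresholded peak at 7846 bp upstream, and only replicate 2 had one at 21043 bp downstream, which lies 482 bp from a start of the neighbour *crq*.

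**Figure D3:**
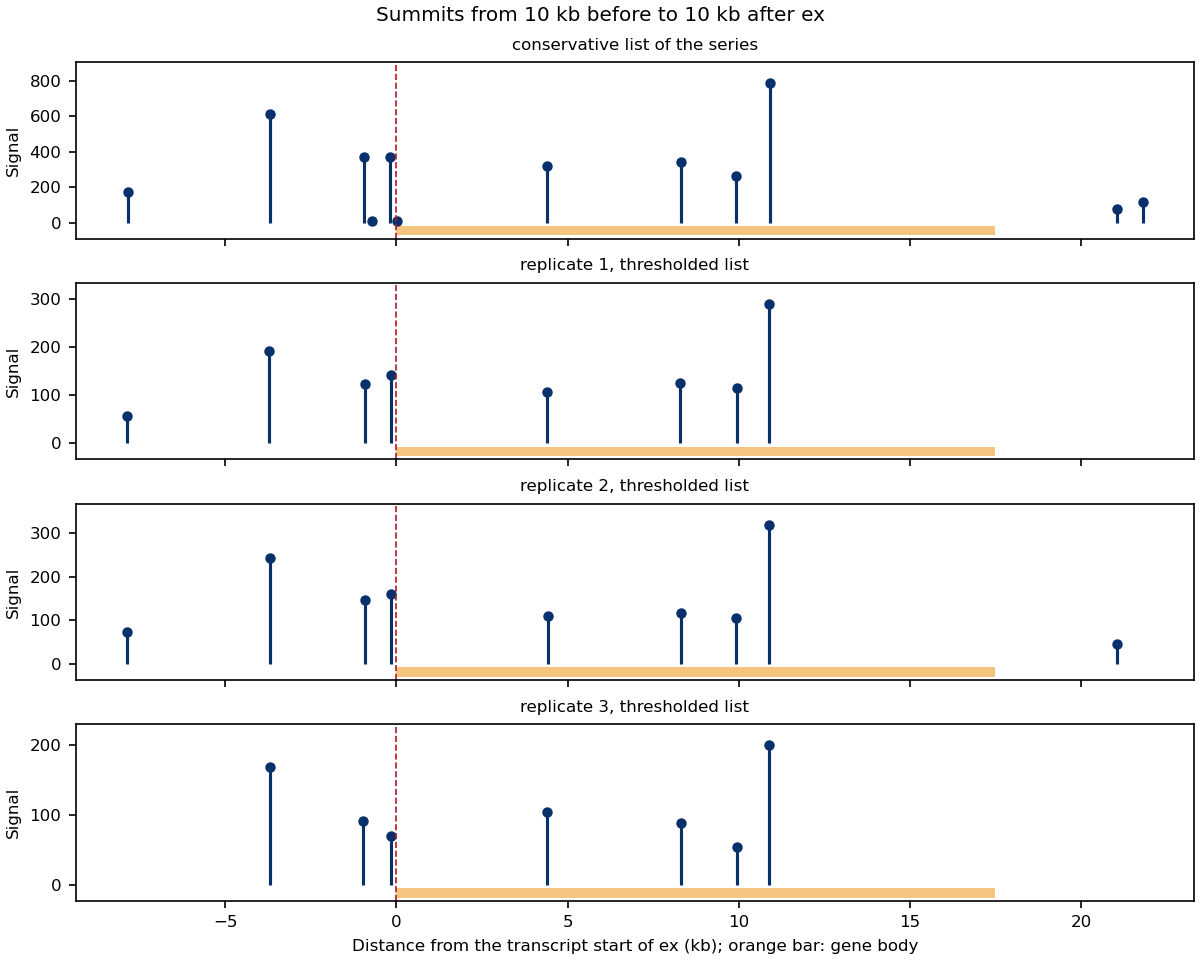
Signal of each summit by distance in kb from the transcript start of *ex* (dashed line; orange bar, gene body), in the conservative list and in the thresholded list of each of the 3 libraries; each panel has its own signal axis. The same 7 positions recur in every library, with the highest stem 10.9 kb downstream of the start (290, 319 and 200 in replicates 1, 2 and 3).

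Windows of 101 bases are shown for the promoter summit of *ex* and for the strongest intronic and upstream summits of the gene, on the plus strand of dm6 from RefSeq. They are chr2L:430996-431096, chr2L:442070-442170 and chr2L:427490-427590. No motif searched had a match in them, so no letter is in capitals.
ex, 181 bp upstream: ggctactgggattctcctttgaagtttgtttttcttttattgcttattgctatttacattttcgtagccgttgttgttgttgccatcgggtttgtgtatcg
ex, 10893 bp downstream: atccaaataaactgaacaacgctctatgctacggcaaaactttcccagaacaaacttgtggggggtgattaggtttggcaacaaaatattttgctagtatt
ex, 3687 bp upstream: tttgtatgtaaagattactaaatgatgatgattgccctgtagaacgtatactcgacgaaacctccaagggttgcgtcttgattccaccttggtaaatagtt

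*Mer*, the *Drosophila* orthologue of the human tumour suppressor NF2 and a partner of Ex, had the strongest promoter peak of the 10 genes. The gene is 3.8 kb long, on the minus strand at chrX:19689697-19693500. The summit lay 88 bp downstream of the start, in an intron, with a signal of 431 and library values of 142, 143 and 110. It stood within the first 15.5%, 17.1% and 22.0% of the libraries' lists. Among 3371 genes with a promoter summit, *Mer* was at place 530 by its strongest signal. By the same signal among 3529 promoter summits, its nearest neighbours were those at *TH1* and *mei-41* (432), *Brf* and *sds22* (432), *Hem* and *IleRS* (431) and *CG7029*, *Usp12-46* and *rumi* (431). The other summits near *Mer* belonged by position to neighbours, with 173 at 141 bp from the start of *CG14229* and 98.4 at 62 bp from the start of *Cdc42*.

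*mats* encodes the Mob-family cofactor that activates Wts, and it had a single strong peak. It is 2.14 kb long, on the plus strand at chr3R:22421161-22423302, with 2 annotated starts. The summit lay in an intron 466 bp downstream of the nearer start and 630 bp from the other, with a signal of 312 and library values of 109, 130 and 93.3. The summits in the libraries differed from this position by 2, 1 and 2 bp, and the peaks stood at 24.3%, 19.8% and 28.2% of the lists. The other summit within 10 kb, with a signal of 203, lay 498 bp from a start of the neighbour *pinta*. The window of the *mats* summit, chr3R:22421741-22421841 on the plus strand of dm6 from RefSeq, is shown because it holds the A/T word TTTAAA at more than 1 place. Capitals mark its matches.
mats, 466 bp downstream: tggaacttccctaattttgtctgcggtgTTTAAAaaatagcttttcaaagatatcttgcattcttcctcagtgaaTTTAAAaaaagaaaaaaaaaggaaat

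*wts* encodes the kinase that phosphorylates Yki, and its start had no peak while its body was rich in them. It is 17.0 kb long, on the minus strand at chr3R:30789625-30806619, with 1 start. No thresholded list, of a library or of the series, held a summit within 500 bp of that start. The ranked lists held peaks there with signals of 22.9, 18.2 and 29.5, at ranks 16648 of 70608, 28735 of 74274 and 9822 of 85335. The nearest conservative summit lay 645 bp downstream, just outside the window, with a signal of 123, and was found in replicate 1 alone. Its body held 6 summits with signals from 9.3 to 248, against a median of 0 for genes of 5 to 20 kb, of which 1.13% held more. The weakest, 5907 bp downstream with 9.3 and a q-value of 0.888, touches the same library peaks as the summit of 108 at 6109 bp. Of these 6, the summit found in all 3 libraries lay in an intron 1338 bp downstream, with a signal of 200 and library values of 44.4, 86.6 and 60.1. The strongest, 11555 bp downstream with 248, was found in replicates 1 and 2.

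The surroundings of *wts* held stronger peaks than the gene. The signal was 717 in an intron of the neighbour *zfh1*, 24857 bp from the *wts* start, with 267, 262 and 169 in the libraries. It was 376 just beyond the 3′ end of *wts*, with 119, 162 and 97.5. On the other side, peaks of 425 and 286 lay in an intron of *cindr*. All of these were found in all 3 libraries. The summits in *zfh1* and *cindr* lie inside those genes, while the peak of 376 overlaps the last bases of *wts*.
The *wts* intron window at 1338 bp, chr3R:30805231-30805331, is shown on the plus strand of dm6 from RefSeq as the body site that every library held, and it has no motif match.
wts, 1338 bp downstream: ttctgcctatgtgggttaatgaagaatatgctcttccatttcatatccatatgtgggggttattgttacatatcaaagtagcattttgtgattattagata

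*sd* encodes the TEAD-family protein that brings Yki to DNA, and its stronger promoter peak lay at an internal start. The gene is 23.3 kb long, on the plus strand at chrX:15804370-15827682, with 7 annotated starts. The peak found in all 3 libraries lay 265 bp upstream of the internal start at 15812094, with a signal of 158 and library values of 66.5, 87.0 and 43.2. It stood at 49.9%, 36.1% and 83.2% of those lists, lowest in replicate 3. At the first start, the summit 51 bp downstream had a signal of 93.6 and was found in replicate 2 alone (53.9). A further summit 563 bp downstream of that start, outside the window, had a signal of 120 and was in the thresholded list of 0 libraries. The start at 15812327 lay 498 bp from the internal summit, and the 3 starts beyond it had no summit nearer than 1724 bp.
The *sd* window at the internal start, chrX:15811779-15811879 on the plus strand of dm6 from RefSeq, is shown for its run of GAGAG matches on the opposite strand, which read CTCTC here. Capitals mark these and a TTTAAA match.
sd, 265 bp upstream: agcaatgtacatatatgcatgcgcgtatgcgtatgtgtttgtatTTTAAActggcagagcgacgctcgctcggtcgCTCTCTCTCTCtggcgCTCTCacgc

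**Figure D4:**
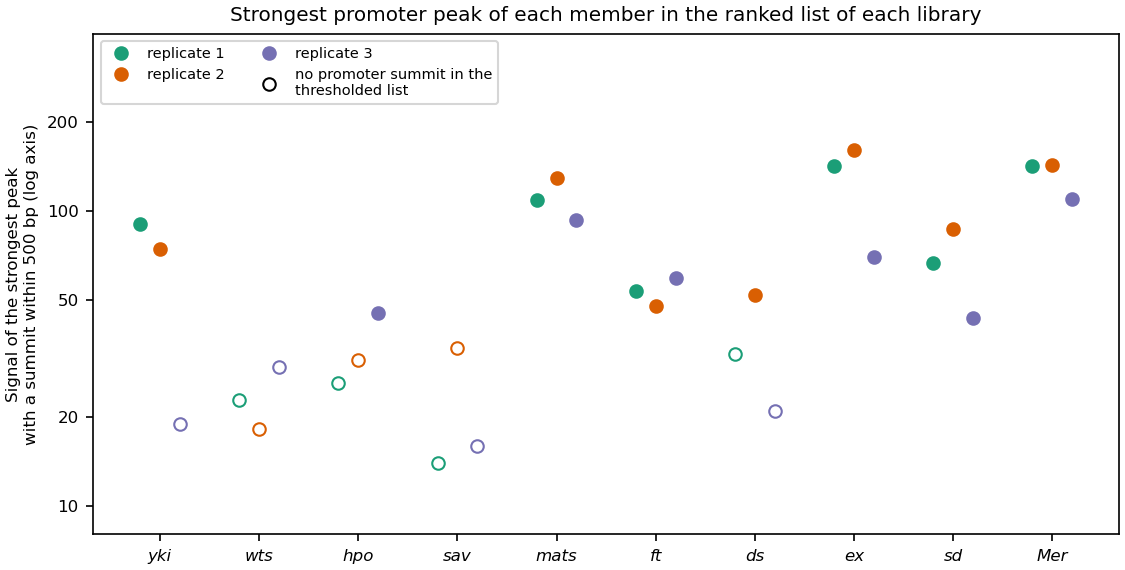
Signal (log axis) of the strongest peak with a summit within 500 bp of a start, for each of the 10 Hippo pathway genes in the ranked list of each library; filled points also have a promoter summit in the thresholded list and open points do not. *mats*, *ft*, *ex*, *sd* and *Mer* are filled in all 3 libraries, *wts* and *sav* are open in all 3, and *hpo* and *ds* are each filled in 1 library. For *ft*, the peak shown is the one inside the gene in replicates 1 and 2 and the upstream one in replicate 3. Signals belong to their own list, so colours are not to be compared in level.

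*hpo* and *sav*, the kinase at the top of the cascade and its scaffold, had the lowest promoter signal among the bound members and no promoter summit, respectively. *hpo* is 2.86 kb long, on the minus strand at chr2R:19493996-19496856. Its summit lay 21 bp downstream of the start, in the 5′ UTR, with a signal of 90.7, a q-value of 0.135 and place 2973 of 3371 bound genes. It was in the thresholded list of replicate 3 alone (45.0, rank 4658 of 5844), while the ranked lists of replicates 1 and 2 held peaks of 26.1 and 31.3 at ranks 13680 and 12413. No other summit lay within 10 kb of *hpo*. *sav* is 2.7 kb long, on the minus strand at chr3R:23058609-23061304, and had neither a promoter nor a body summit. The ranked lists placed peaks at its start with signals of 13.9, 34.3 and 15.9, at ranks 34513, 10844 and 33376. The nearest conservative summit lay 7179 bp from its start and 43 bp from the start of the neighbour *p53*, with a signal of 163, and was found in all 3 libraries.

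*yki*, the co-activator on which the pathway converges, shared its promoter peak with a neighbour. It is 2.51 kb long, on the minus strand at chr2R:24065975-24068485. The summit 420 bp upstream of its start had a signal of 237, and lay in the 5′ UTR of *Gpat4*, 145 bp from the nearest start of that gene. Assigned to the nearest start only, it would belong to *Gpat4* and the count of members with a promoter summit would be 7. The library peaks had signals of 90.4, 74.1 and 93.5, at 32.4%, 45.8% and 28.2% of the lists. In replicate 3 the summit of this peak lay 82 bp from the conservative summit and outside the promoter window, so *yki* was not on that library's own promoter list. The body of *yki* held no summit. The other 5 summits within 10 kb all lay downstream and within 500 bp of starts of neighbours, among them *RpL39* (244), *eEF5* (249) and *RpL12* (168).

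Across the members, 37 conservative summits lay at promoters or in bodies, and a further 44 lay in the flanks up to 10 kb. Of the 37, 26 were in introns (70.3%, against 54.1% of all conservative summits), 9 in 5′ UTRs (24.3%, against 11.0%) and 2 in intergenic sequence (5.41%, against 29.5%). Coding exons held 0, as they held 1.48% of all summits. The choice of promoters and bodies sets part of these shares, since it leaves out most intergenic sequence. Among 11 promoter summits, 4 were upstream of the start, namely the one at *yki* and, by signal in the conservative list, the stronger ones at *ft*, *ex* and *sd*. Of the 11, 7 were found in all 3 libraries (63.6%, against 40.3% of all conservative summits). These 7 include the weak *ex* summit 21 bp downstream, which touches the library peaks of its neighbour. Of the 44 flank summits, 15 lay within 500 bp of a start of another gene, 25 lay inside the body of another gene, and 10 had a start of the member as the nearest start.

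The peaks of the pathway genes were of ordinary strength for this list. The median signal of the 37 summits was 150, against 140 for all peaks, with a range from 7.66 at *ex* to 785 at *ex*. The strongest promoter signal per gene had a median of 198 over the 8 bound members and 173 over all 3371 bound genes. Of the 37, 17 were found in 3 libraries, 7 in 2, 9 in 1 and 4 in 0, or 45.9% in 3 libraries against 40.3% of all peaks. The ranked lists of all 3 libraries held an overlapping peak for 35 (94.6%, against 94.9% of all peaks). For 11 of the 37 the q-value exceeded 0.05 (29.7%, against 33.7% of the conservative list).

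Body summits were most numerous in *ds*, the longest member. *ds* held 13 body summits, *wts* 6, *ex* 5, *ft* 4 and *sd* 3. Within genes of 20 kb or longer, whose median was 2, the share with more body summits was 7.11% for *ds*, 34.6% for *ft* and 41.0% for *sd*. Within genes of 5 to 20 kb, whose median was 0, it was 1.13% for *wts* and 1.86% for *ex*. Within genes under 5 kb, whose median was also 0, it was 1.26% for *hpo*, *mats* and *Mer*, which held 1 each. Per kb of gene, *mats* had 0.467 body summits, *wts* 0.353, *hpo* 0.35, *ex* 0.286, *Mer* 0.263, *ds* 0.173, *ft* 0.171 and *sd* 0.129. The libraries' own thresholded lists held 22, 26 and 18 summits in the bodies of the members, and a body summit in 7 members in each library, against 15.0%, 15.5% and 12.9% of all genes.

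**Figure D5:**
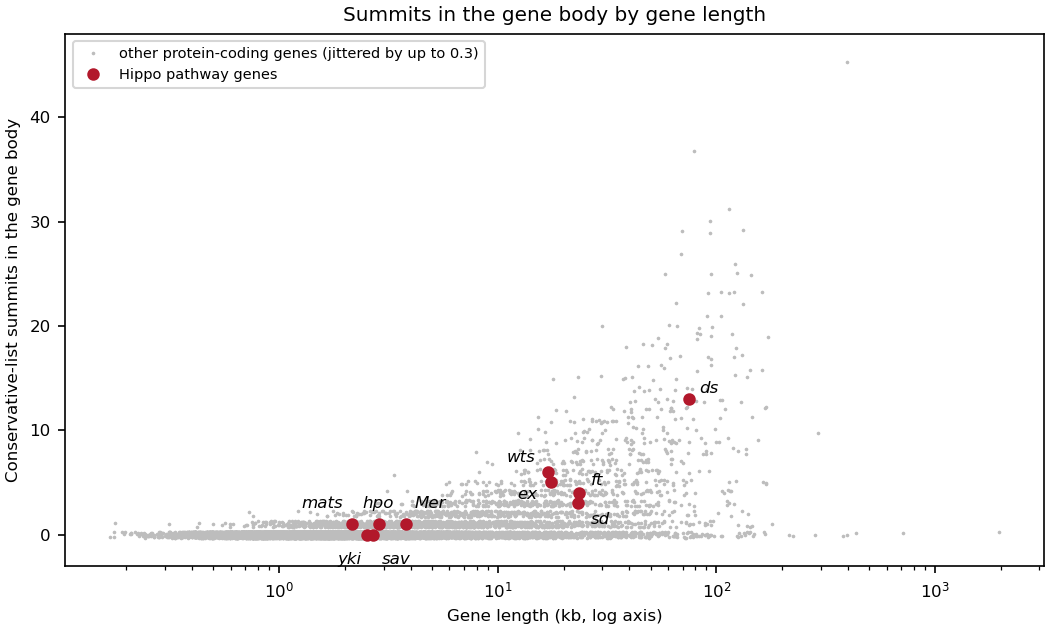
Number of conservative-list summits in the gene body against gene length in kb (log axis), for 10 Hippo pathway genes (red, named) and all other protein-coding genes (grey, jittered). *wts* (6) and *ex* (5) lie near the upper edge for their length, *ds* (13) lies high, and *ft* (4) and *sd* (3) lie within the bulk of long genes.

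Letters of known motifs were searched on both strands in 101-base windows centred on the 37 promoter and body summits. GGAATG, the core of the sites bound by Sd and other TEAD proteins, was in 0 of 37 windows and in 3.65% of all 10892 conservative windows. With the flanks up to 10 kb included, it was in 3 of 81 windows (3.7%). In windows of 201 bases it was in 4 of 37 (10.8%, against 7.64%). GAGAG, bound by GAGA factor, was in 4 windows (10.8%, against 16.3%), in *wts* and *sd*. TATAAA was in 1 (2.7%, against 15.7%), the *ft* window shown above. TATCGATA (the DRE), AGGTCA (the ecdysone receptor half-site), TGANTCA (AP-1) and CAGGTAG (Zelda) were in 0 windows, against 0.679%, 1.68%, 2.33% and 0.349%. In the 201-base windows GAGAG was in 10 (27.0%, against 32.4%), TATAAA in 4 (10.8%, against 26.3%) and TGANTCA in 2 (5.41%, against 4.49%), and the other 3 of these stayed at 0. TTTAAA was in 8 windows, at *mats*, *ft*, *ds* and *sd* (21.6%, against 13.6%). That word was added after short words at all conservative summits had been counted, so its share is a description. Matches of GAGAG can overlap each other, and a window counted once. The median A/T content of the windows was 63.4%, against 62.4% for all windows.

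A further 50 genes that act around these members were taken in 3 lists, also chosen with earlier results of these data known. Of these, 35 had a promoter summit, beside 24.2% of all protein-coding genes, and 16 had one found in all 3 libraries, beside 12.1%. They too were long, with a median of 12.6 kb over the protein-coding ones. By size, and without the microRNA gene *mir-ban*, 3 of 10 genes under 5 kb, 18 of 23 of 5 to 20 kb and 13 of 16 of 20 kb or longer were bound at the promoter, beside 17.8%, 40.6% and 50.3% of all genes of these sizes. Of 29 upstream regulators 19 were bound, the strongest being *app* (886), a palmitoyltransferase that acts downstream of Ft, and *dachs* (496), the atypical myosin it regulates. *dlg1* (416) and *scrib* (383), which encode basolateral polarity proteins, followed, and *Cka*, *Dlish* and *Patj* were among those without a promoter summit. Of 7 nuclear partners 6 were bound, with *Wbp2* the exception. They were led by *brm* (1463), which encodes the ATPase of the Brahma chromatin-remodelling complex, *Tgi* (703), a repressor partner of Sd, *Trl* (682), which encodes GAGA factor, and *mask* (190), a cofactor of Yki. The *brm* summit lay nearest to a start of *Arl1*. Among the upstream regulators, the promoter summits of *Pez*, *Strip*, *mts* and *wap* likewise lay nearest to starts of *Cpr*, *Gtpx*, *Rack1* and *Usp2*.

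Genes known as targets of Yki made up the list with the lowest median signal. Of 14 targets 10 were bound at the promoter, the microRNA gene *mir-ban* among them, beside 24.2% of all protein-coding genes. A promoter peak in all 3 libraries was present at 3 targets, beside 12.1%. *CycE* (213), which drives entry into S phase, *dally* (213) and *dlp* (207), which encode glypicans, and *Diap1* (149), an inhibitor of apoptosis, had the highest signals. The targets *E2f1*, *upd1* and *upd2* had no promoter summit. The median strongest signal of bound genes was 112 for targets, 139 for upstream regulators and 436 for nuclear partners, beside 173 for all bound protein-coding genes. The nuclear partner median rests on 6 genes, with signals from 58.4 to 1463, and lies in a gap between 190 and 682. The peak of 58.4 was found in 0 libraries.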

How the data were processed

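ChIP-seq of CG6163-eGFP with an antibody against GFP was made in whole prepupae, in 3 libraries labelled as biological replicates of 1 group. Per the labels, chromatin was sonicated to 200 to 800 bp, coordinates are dm6, and a possible control experiment is named, which was not used here. Neither aligner nor peak caller is given in the sources used here. The deposited files are peak lists. The authors filtered the thresholded lists by IDR, and the deposited score per peak, which rises as the IDR falls, began at 830 in them. The signal per peak, deposited by the authors on a scale that is not stated, is a value of its own list. The authors also deposited −log10 values of q and of the IDR, which served here as limits. Which replicates were compared to make the conservative list is not stated in the notes used here. Read depth was not used here, and the number of peaks is given for each list.

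Of the 10894 conservative peaks, 10892 lay on the main chromosomes. Genes and starts were read from Ensembl's annotation of this assembly, leaving out transposable elements, and sequence was read from the RefSeq copy of dm6. Summits were assigned to every start within 500 bp, to gene bodies and to 10 kb on either side. Motif letters were searched in windows of 50 bases to each side of a summit, on both strands. Counts of members are set beside the share of all 13945 protein-coding genes. With 1 group and named genes, no p-value was computed. The assignment of summits was tested on simulated data with planted summits.

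The members and gene lists were chosen with earlier results of these data known. After the files were seen, the symbol *d* was replaced by the current *dachs*, *riq* was dropped as a synonym of *wap*, the length classes were set, and TTTAAA was added. All members are named, and of each further list up to 4 genes with the highest promoter signal and up to 3 unbound genes in alphabetical order. Genes next in rank to the strongest promoter summit of the members, and genes sharing a summit with a member, are named too. So are genes of the further lists whose promoter summit lay nearest to a start of another gene. Alternatives changed the window, the assignment, the peak list, the IDR and q limits, the overlap rule, the sequence window and the libraries used. Python 3.11.15 was used with pandas 2.3.3, NumPy 2.4.6 and matplotlib 3.10.9.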

Additional observations from a re-analysis of the deposited data

How the results depend on the processing

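Shares of all protein-coding genes are given for the main settings only, so the counts under the alternatives have no matching share beside them. With a promoter window of 200 bp in place of 500 bp, 5 of the 8 bound members kept a promoter summit. Those with one found in all 3 libraries went from 6 to 2 (*ex* and *Mer*). With 1000 bp the counts were 9 and 7, and the strongest promoter signal of *ds* rose from 97.0 to 557. At an IDR of 0.001 or lower, body summits of the members went from 34 to 20 and bound genes of the 50 further ones from 35 to 21. The whole conservative list went from 10894 to 6735 peaks at that limit. With 100 bases to each side, windows with GGAATG went from 0 to 4. Each of these alternatives narrows or widens what is counted, and the cause of the differences was not tested. Bound members numbered 8, 7 and 6 in the other series lists of 12445, 9110 and 8933 peaks, 6 at an IDR of 0.001 and at a q-value of 0.05, and 7 with each summit given to its nearest start. *hpo* and *ds* were lost at both limits, and *yki* with the nearest start. When 50% of both peaks had to be shared, promoters found in all libraries went from 6 to 4, without *yki* and *ex*. Leaving out each library in turn gave 6 to 6 promoters and 7 to 7 bodies. Leaving out a library eases the rule, so these counts could rise but could not fall. Counting 1 summit per merged region, chosen after seeing the data for promoters and bodies, left 8 members in each, and the body summits of the members went from 34 to 31. No paired analysis was possible because all samples belong to 1 group. Read depth was not used, so what it limits in these lists was not tested.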
